A study of Homo sapiens with 4 samples.

Results

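The genes described here mark intestinal identity and differentiation, and they were followed in a colon carcinoma cell line after treatment with DNA-demethylating drugs. They were the 10 genes CDX1, CDX2, HNF4A, KLF4, ATOH1, MUC2, TFF3, VIL1, FABP1 and CDH17. All probes of the array whose RefSeq accession belongs to one of these symbols were taken, which gave 17 probes of 58201 gene probes, and 10 of the 25006 genes that could be named. The rule that picks the probes uses names only, not a measured value, but the genes were chosen with earlier results of these data known. CDX1 and TFF3 had 3 probes each, MUC2 had 4, and the other genes had 1 probe each.

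The cells were HML58-3, a line derived from the human colon carcinoma line HCT116 that carries a luciferase reporter behind a methylated marker promoter. Cells were given mock treatment, or 1 μM of DAC (decitabine), of OR-2003 or of OR-2100. Drug was added on day 1, and RNA was collected on day 5. Values for the drugs are given in the order DAC, OR-2003, OR-2100 unless a drug is named. DAC is a cytidine analogue that is built into DNA and traps the enzyme that copies DNA methylation, and OR-2003 and OR-2100 are prodrugs of DAC. Each condition was measured on 1 array, so the number of arrays limits the precision, differences have no replicate check, and p-values are not given.

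The epithelium of the intestine renews itself from crypt stem cells, whose daughters become absorptive cells or secretory cells. The homeobox factors CDX1 and CDX2 set intestinal identity, HNF4A is a nuclear receptor that drives absorptive genes, KLF4 is a zinc finger factor of differentiated and goblet cells, and ATOH1 is the basic helix-loop-helix factor that commits a cell to the secretory fate. MUC2 is the gel-forming mucin of goblet cells and TFF3 is the trefoil peptide secreted with it. VIL1 encodes villin, an actin-bundling protein of the brush border, FABP1 a fatty acid binding protein of absorptive cells, and CDH17 an intestinal cadherin. DNA methylation in human cells sits mostly on CG dinucleotides, and promoters rich in CG can be silent while methylated.

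A level here is the log2 intensity of a probe after the 75th percentile of the gene probes on that array was set to 0. A probe was called higher with a drug when it was at least 2-fold above the mock array and reached -1 or more on the drug array, which is the rule of the study's methods for induced, positively expressed genes. The mirror image, at least 2-fold below mock from -1 or more on the mock array, was called lower. Levels of different probes are not set against each other, since each probe has its own brightness. Where the dimmer array did not measure a probe well above background, the fold is a lower bound, computed against the lowest level well above background on that array or the probe's own level, whichever was higher.

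The arrays had 31601 to 33282 probes well above background and 0 saturated gene spots. The error within an array was taken from 300 probes with 10 spots each. Their median SD between spots was 0.058 to 0.066 in log2 units at levels of -1 or more, 0.16 to 0.21 at lower levels well above background, and 0.25 to 0.60 for probes not well above background. The values at lower levels rest on only 12 to 15 probes an array, and those not well above background on 6 to 16. This error covers the spread between spots only, not between cultures.

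The promoter sequences are shown because the drugs act on methylated CG. RefSeq windows of 300 bases (250 before and 50 after the start of transcription, build GRCh38.p14) were found for 6 of the 10 genes, namely CDX2, HNF4A, KLF4, ATOH1, MUC2 and FABP1, and TFF3, VIL1, CDX1 and CDH17 are given by name only. Below are the 250 bases before the start for 4 of the genes, a factor gene with a CG-rich window (KLF4), a factor gene measured on every array (CDX2), a factor gene not measured on any array (ATOH1) and a goblet gene (MUC2). The windows of CHGA and LGALS4, described further on among other intestinal genes that were higher with every drug, follow. Each CG is in capitals, and all are written 5′ to 3′ on the strand of the gene.
KLF4, chr9:107489770-107490019, minus strand: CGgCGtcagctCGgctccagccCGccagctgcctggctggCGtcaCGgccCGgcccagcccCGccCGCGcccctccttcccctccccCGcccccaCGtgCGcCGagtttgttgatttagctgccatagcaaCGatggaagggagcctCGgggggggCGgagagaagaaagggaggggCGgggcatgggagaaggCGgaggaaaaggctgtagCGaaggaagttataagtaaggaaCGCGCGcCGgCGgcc
CDX2, chr13:27969316-27969565, minus strand: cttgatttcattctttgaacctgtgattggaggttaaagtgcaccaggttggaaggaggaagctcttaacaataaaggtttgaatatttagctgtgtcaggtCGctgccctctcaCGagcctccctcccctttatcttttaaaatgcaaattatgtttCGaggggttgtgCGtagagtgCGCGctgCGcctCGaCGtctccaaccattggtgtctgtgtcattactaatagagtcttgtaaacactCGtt
ATOH1, chr4:93828503-93828752, plus strand: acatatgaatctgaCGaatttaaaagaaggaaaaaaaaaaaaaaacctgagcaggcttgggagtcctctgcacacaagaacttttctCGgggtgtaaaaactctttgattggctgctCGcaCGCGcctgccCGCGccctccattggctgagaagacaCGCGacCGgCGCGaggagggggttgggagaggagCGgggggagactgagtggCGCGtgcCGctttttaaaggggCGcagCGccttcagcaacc
MUC2, chr11:1074624-1074873, plus strand: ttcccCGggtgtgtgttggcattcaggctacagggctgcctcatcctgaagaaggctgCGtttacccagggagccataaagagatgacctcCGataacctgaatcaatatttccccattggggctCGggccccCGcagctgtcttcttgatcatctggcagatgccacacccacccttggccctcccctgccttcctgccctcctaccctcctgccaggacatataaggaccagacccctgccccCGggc
CHGA, chr14:92922900-92923149, plus strand: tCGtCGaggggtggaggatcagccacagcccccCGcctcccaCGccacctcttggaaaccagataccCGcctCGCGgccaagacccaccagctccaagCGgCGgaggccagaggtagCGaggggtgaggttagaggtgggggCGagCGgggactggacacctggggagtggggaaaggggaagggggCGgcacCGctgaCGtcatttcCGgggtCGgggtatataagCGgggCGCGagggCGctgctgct
LGALS4, chr19:38812946-38813195, minus strand: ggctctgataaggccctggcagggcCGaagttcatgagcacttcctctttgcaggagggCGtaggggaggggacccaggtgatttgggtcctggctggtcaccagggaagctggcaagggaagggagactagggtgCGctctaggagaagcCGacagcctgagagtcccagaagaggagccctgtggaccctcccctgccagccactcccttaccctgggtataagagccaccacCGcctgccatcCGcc

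The 300-base window of KLF4 held 33 CG, and 17.2% of all 35116 windows held as many or more. ATOH1 had 22 CG, CDX2 16, MUC2 9 and FABP1 7. HNF4A has 2 windows, with 11 CG at one start and 9 at the other. The median over all windows was 14, with quartiles at 4 and 28, so the genes with a window ran from the lower middle of all promoters to above the upper quartile. CHGA had 24 CG and LGALS4 had 7. The letters TTTATG, a core of the sites bound by CDX factors, were searched on both strands and stood in the windows of MUC2 and FABP1, 2 of the 6 genes. They stood in 10.6% of all windows. Methylation at these windows was not analysed here.

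Of the 17 probes, 7 were well above background with mock and 12 with each drug. By gene, 4 were measured on the mock array (CDX1, CDX2, KLF4 and MUC2), 6 with DAC and with OR-2100, when TFF3 and VIL1 joined them, and 7 with OR-2003, when HNF4A did too. FABP1, ATOH1 and CDH17 were not well above background on any array. In bulk RNA, fewer cells that express a gene and less RNA per cell cannot be told apart.

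Of the 10 genes, 1 was called higher with each drug and 0 were called lower. That gene was TFF3, and its 3 probes were the 3 of 17 probes called higher with every drug. Over the array, 3.44%, 3.53% and 3.5% of probes were called higher with the 3 drugs, and 4.03%, 4.07% and 4.49% lower. Over named genes, the shares called higher were 5.77%, 5.89% and 5.81%, and those called lower were 5.96%, 6.05% and 6.82%. With 10 genes, 1 called gene is close to these shares. The median log2 difference from mock over the 10 genes was 0.085 with DAC, 0.10 with OR-2003 and 0.079 with OR-2100, beside -0.12, -0.093 and -0.23 over all named genes. The sign of this median depended on the scaling, and with the median of each array set to 0 it was -0.12 with OR-2003. The 3 drugs were compared with the same mock array, so their values are not independent of each other.

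**Figure D1:**
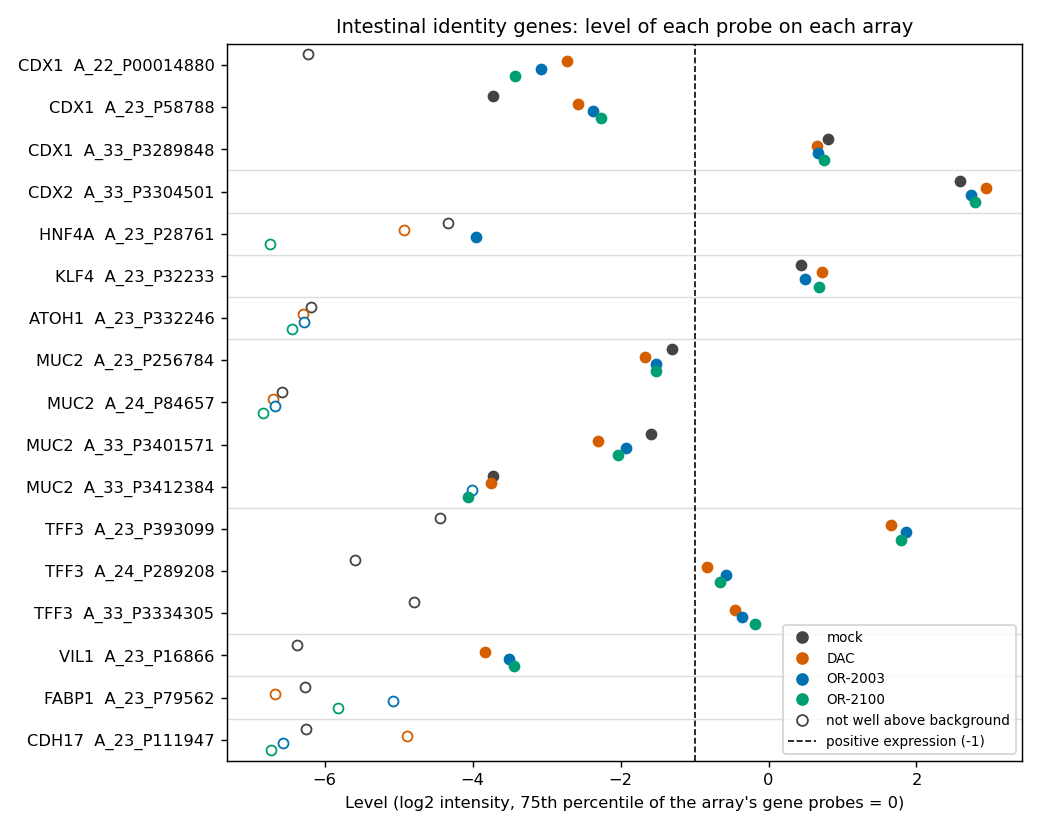
Level (log2 intensity with the 75th percentile of gene probes at 0, x axis) of each of the 17 probes (y axis) on the mock, DAC, OR-2003 and OR-2100 arrays, 1 point an array; open points were not well above background, and the dashed line is the level of -1. The 3 TFF3 probes are open on the mock array and lie right of the line with every drug, while the 4 points of CDX2, and likewise of KLF4, lie close together.

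CDX2 was expressed with and without drug. Its level on probe A_33_P3304501 was 2.59 with mock, 2.94 with DAC, 2.74 with OR-2003 and 2.80 with OR-2100, well above background on each. The mock array was the lowest and the DAC array the highest, with log2 differences from mock of 0.35, 0.15 and 0.20. No drug reached 2-fold. The DAC and OR-2100 values stayed above mock in every setting tried, and the OR-2003 value turned to -0.07 when the median of each array was set to 0.

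KLF4 was also measured on all arrays. Probe A_23_P32233 was at 0.44 with mock, 0.72 with DAC, 0.49 with OR-2003 and 0.69 with OR-2100. The log2 differences were 0.28, 0.05 and 0.25, of which the one with OR-2003 was within the SD between spots, and it turned to -0.17 with the median of each array set to 0. The gene with the window richest in CG among those with a sequence therefore had a level above -1 on the mock array and differed from it by less than 2-fold.

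The 3 probes of CDX1 disagreed. Probe A_33_P3289848 had a level of 0.80 with mock and of 0.65, 0.66 and 0.75 with the drugs, and its log2 differences of -0.15, -0.14 and -0.05 changed sign with the scaling. Probe A_23_P58788 was at -3.72 with mock and at -2.58, -2.37 and -2.27 with the drugs, again well above background on every array. It was 2.21-fold higher with DAC, 2.54-fold with OR-2003 and 2.73-fold with OR-2100, but stayed under the level of -1. Probe A_22_P00014880 did not rise well above background with mock, at -6.22, and stood at -2.72, -3.07 and -3.42 with the drugs, which is at least 2.96-fold, 2.32-fold and 1.82-fold higher.

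Thus the bright CDX1 probe hardly moved while both dim ones were higher with every drug. With normexp background correction, run on the median spot signal with an offset of 50, the log2 difference of A_23_P58788 was 0.12, 0.25 and 0.25, and that of A_22_P00014880 was 0.28, 0.22 and 0.12. A floor at the highest background limit left A_23_P58788 at 1.14, 1.34 and 1.45. Where each probe lies in the CDX1 transcripts was not analysed here, and signal from other transcripts in the dim probes was not tested.

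Among probes of the 10 genes measured on every array, A_23_P58788 of CDX1 had the largest mean difference. Among the 5 genes most like it over the 4 arrays, by the Euclidean distance between log2 levels after each probe's mean was taken off, were MUC12-AS1 at 0.043, NKX2-1 at 0.052, ACTA1 at 0.053 and RYR1 at 0.079. The median distance over the 15976 genes compared was 1.35. NKX2-1, a homeobox factor of lung and thyroid, was at a level of -2.79 with mock and of -1.59, -1.39 and -1.28 with the drugs. With 4 arrays the likeness is a description.

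HNF4A lay at the edge of detection. Probe A_23_P28761 stood at -4.34 with mock, -4.92 with DAC, -3.96 with OR-2003 and -6.73 with OR-2100, and it was well above background with OR-2003 alone. That level was at least 1.25-fold above mock, but with normexp the log2 difference was -0.036, so that no direction is given. ATOH1 (A_23_P332246) ran from -6.44 to -6.18 and was not well above background on any array. A secretory commitment factor was therefore not detectable with or without drug, and no fold is given.

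TFF3 showed the largest differences of the 10 genes. On probe A_23_P393099 the intensity was 7.01 with mock and 554, 601 and 609 with the drugs, which are levels of -4.44, 1.65, 1.85 and 1.79. The mock value was not well above background and the drug values were all far above it, so TFF3 was at least 61.3-fold higher with DAC, at least 70.5-fold with OR-2003 and at least 67.6-fold with OR-2100. The 3 drug arrays differed among themselves by far less than any did from mock.

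The other TFF3 probes gave the same direction. Probe A_24_P289208 was at -5.59 with mock and at -0.83, -0.57 and -0.66 with the drugs, at least 11.0-fold, 13.2-fold and 12.3-fold higher. Probe A_33_P3334305 was at -4.79 and then at -0.45, -0.35 and -0.19, at least 14.3-fold, 15.3-fold and 17.1-fold higher. The mock value of each was not well above background. Every setting that kept the threshold on the level at -1 gave all 3 probes higher with every drug, except setting 0 at the 75th percentile over only the probes above background, a stricter level, which left A_23_P393099. With normexp the log2 differences of A_23_P393099 shrank from 6.10, 6.30 and 6.24 to 3.22, 3.40 and 3.36, still the largest of the 10 genes, and those of the other 2 probes were 1.12 to 1.80. Normexp here adds an offset of 50 to every intensity, which by construction shrinks differences from a dim array.

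MUC2 stayed within 2-fold of mock on its brighter probes. Probe A_23_P256784 was at -1.30 with mock and at -1.67, -1.53 and -1.52 with the drugs, and probe A_33_P3401571 was at -1.58 and then at -2.31, -1.93 and -2.04. On both, the mock array was the brightest. The log2 differences were -0.37, -0.23 and -0.22 on the former and -0.72, -0.34 and -0.45 on the latter, short of 2-fold. Those of A_33_P3401571 stayed below 0 in every setting, and those of A_23_P256784 with OR-2003 and OR-2100 turned above 0, to 0.070 and 0.031, with 0 set at the 75th percentile over only the probes above background.

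The remaining MUC2 probes were dim. A_33_P3412384 was well above background on 3 arrays, not with OR-2003, at levels of -3.72, -3.75, -4.01 and -4.06 in the order mock, DAC, OR-2003 and OR-2100. A_24_P84657 was not well above background on any array. No MUC2 probe was called in either direction with any drug.

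VIL1 was not well above background with mock, at -6.38 on probe A_23_P16866, and was measured with each drug, at -3.83, -3.51 and -3.44. It was at least 1.37-fold higher with DAC, at least 1.71-fold with OR-2003 and at least 1.79-fold with OR-2100. These bounds are under 2-fold and the levels far under -1, and with normexp the log2 differences were 0.20, 0.28 and 0.25. FABP1 (A_23_P79562) ran from -6.67 to -5.08 and CDH17 (A_23_P111947) from -6.72 to -4.89. Neither was well above background on any array, so that no direction is given for them.

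TFF3 lies next to TFF2 and TFF1 in the RefSeq gene order, and these neighbours were looked at after the TFF3 values had been seen. TFF2, a trefoil peptide of gastric mucous cells, was at -3.31 with mock and at 2.37, 2.42 and 2.32 with the drugs. It was measured on every array and was 51.3-fold, 52.9-fold and 49.6-fold higher. With normexp its log2 differences fell from 5.68, 5.73 and 5.63 to 3.47, 3.52 and 3.39.

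TFF1, the third trefoil gene of the run, was at -1.69 with mock and at -1.67, -1.61 and -1.65 with the drugs. Its log2 differences of 0.02, 0.08 and 0.04 were within the SD between spots. ABCG1, on the other side of TFF3, differed from mock by 0.08 to 0.43. The difference at TFF3 and TFF2 was therefore not seen at the adjoining genes on either side.

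**Figure D2:**
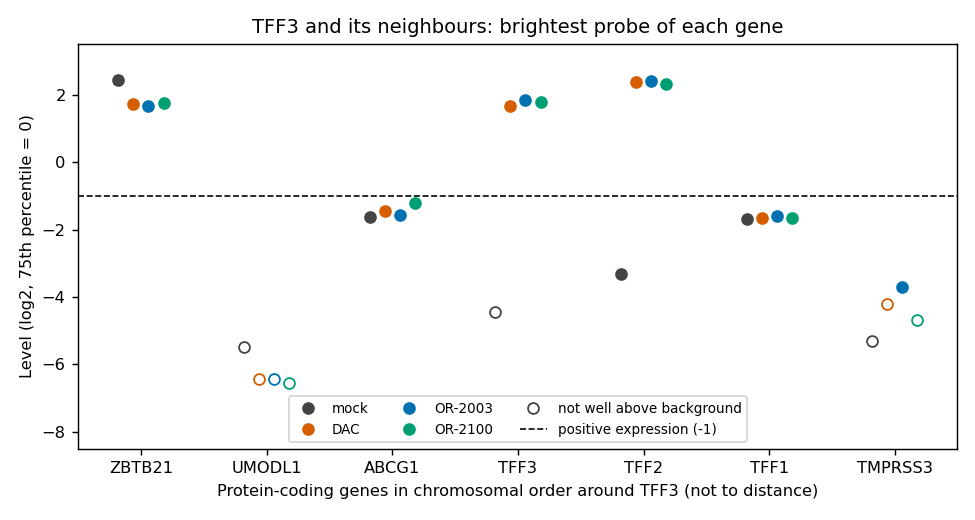
Level (log2, y axis) of the brightest probe of TFF3 and of the 3 protein-coding genes on either side, in chromosomal order but not to distance (x axis), on the 4 arrays, with open points not well above background. TFF3 and TFF2 lie below the dashed level of -1 on the mock array and above it with every drug, while the 4 points of TFF1 lie together at -1.69 to -1.61.

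A wider list of 111 intestinal genes on the array was counted in the same way, each by its brightest probe. Of these, 5, 5 and 6 were called higher and 9, 10 and 10 lower. The shares called were 4.50%, 4.50% and 5.41% higher and 8.11%, 9.01% and 9.01% lower, beside the shares of all named genes given above. The median log2 difference was -0.031, -0.020 and -0.17. The balance depended on the setting, with 21, 19 and 18 higher and 18, 19 and 18 lower with the median of each array at 0, and 24, 26 and 21 higher and 17, 17 and 23 lower with no level threshold. With 0 at the percentile of the brighter probes the median was 0.19, 0.28 and 0.090. On the mock array 60 of the 111 genes were well above background, and 34 were not on any array.

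Among 24 further transcription factors, 1 was called higher with each drug, and 5, 6 and 6 were called lower. The shares were 4.17% higher with each drug and 20.8%, 25% and 25% lower, beside 5.77%, 5.89% and 5.81% higher and 5.96%, 6.05% and 6.82% lower of all named genes. FOXA2, a forkhead factor of endodermal epithelia, was not well above background at -6.31 with mock and stood at -0.91, -0.69 and -0.45 with the drugs, at least 10.4-fold higher with DAC and at least 14.3-fold with OR-2100. With normexp its log2 differences were 1.12, 1.29 and 1.42. EHF, an epithelial ETS factor, was at 1.44 with mock and at -0.79, -1.05 and -0.71 with the drugs, and ELF3, another, was at 2.58 and then at 0.70, 0.54 and 0.52. GRHL2, a grainyhead factor that maintains epithelial junctions, was at 0.14 with mock and at -2.12, -2.32 and -2.53 with the drugs on its brighter probe. Its other probe was well above background on 1 array. FOXA2 and GRHL2 were not called with all 3 drugs with 0 at the percentile of the brighter probes.

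Among 40 absorptive and brush border genes, 1, 1 and 2 were called higher and 3 lower with each drug. LGALS4, an intestinal galectin, was at -3.20 with mock and at -0.95, -0.63 and -0.59 with the drugs, 4.76-fold, 5.94-fold and 6.14-fold higher, and normexp gave log2 differences of 0.91, 1.04 and 0.99. FABP6, the ileal bile acid binding protein, was at 2.64 and then at 0.80, 0.58 and 0.51. The brush border peptidase DPP4 was at -0.30 and then at -1.93, -1.89 and -2.15, and PLS1, which encodes the actin-bundling fimbrin of microvilli, was at 1.84 and then at 0.66, 0.67 and 0.61. LGALS4, DPP4 and PLS1 were not called with all 3 drugs with normexp, or with 0 at the percentile of the brighter probes. The shares called were 2.5%, 2.5% and 5% higher and 7.5% lower with each drug, near those of all named genes.

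Among 35 goblet, Paneth and enteroendocrine genes, 2 were called higher with each drug and 0 lower. These were TFF2, described above as a trefoil peptide of gastric mucous cells, and CHGA, a granin of enteroendocrine cells. CHGA was not well above background at -6.33 with mock and stood at 0.55, 0.77 and 0.50 with the drugs, at least 28.6-fold, 33.4-fold and 27.6-fold higher. With normexp its log2 differences were 2.21, 2.33 and 2.17, and with 0 at the percentile of the brighter probes it was not called with all 3 drugs. The share called higher, 5.71%, was close to that of all named genes.

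Among 12 crypt stem cell genes, 1 was called in each direction with each drug, a share of 8.33%. Of all named genes, 5.77%, 5.89% and 5.81% were called higher and 5.96%, 6.05% and 6.82% lower. With 12 genes, 1 called gene is close to these shares. ASCL2, a basic helix-loop-helix factor of crypt stem cells, was not well above background at -5.44 with mock and stood at -0.33, -0.25 and -0.16 with the drugs, at least 15.5-fold, 16.4-fold and 17.4-fold higher, and normexp gave log2 differences of 1.63, 1.67 and 1.70. With 0 at the percentile of the brighter probes it was not called with all 3 drugs. CD44, a surface receptor for hyaluronan, was at 7.14 with mock and at 5.18, 5.27 and 5.28 with the drugs, with log2 differences of -1.96, -1.86 and -1.85. The second CD44 probe was lower by less, with differences of -0.86, -1.07 and -0.94.

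**Figure D3:**
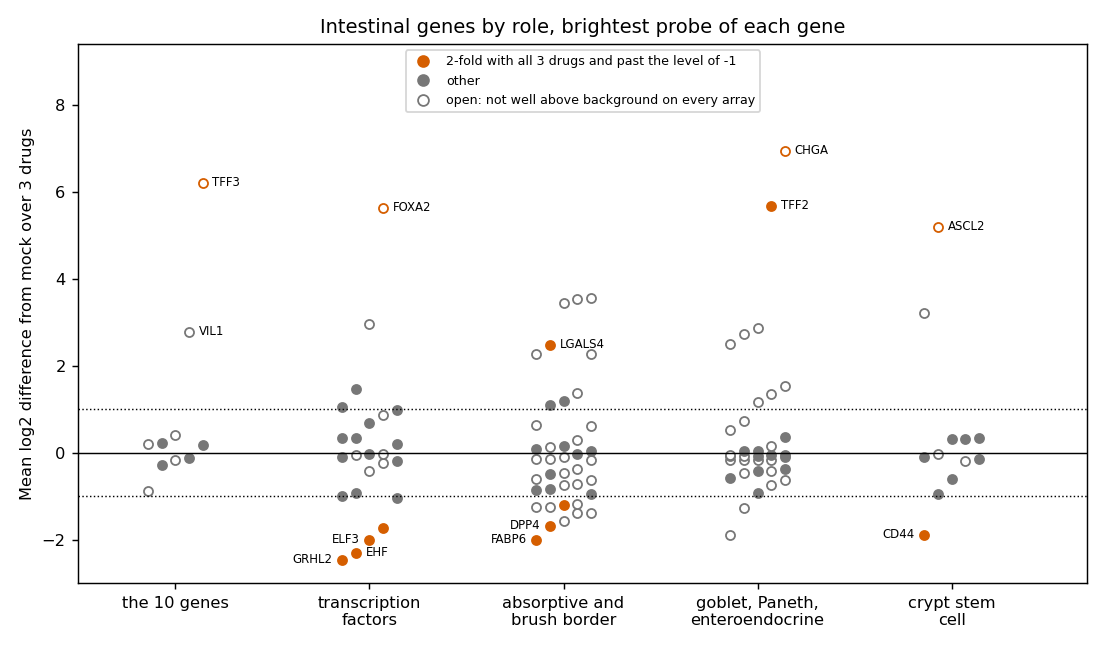
Mean log2 difference from mock over the 3 drugs (y axis) of the brightest probe of each gene, for the 10 genes and for 111 further intestinal genes by role (x axis), 1 point a gene, spread sideways only to keep points apart. Orange points were called in the same direction with every drug, open points were not well above background on all 4 arrays, and dotted lines mark 2-fold; TFF3 is the 1 orange point among the 10 genes, and orange points lie on both sides of 0 among the other factors, absorptive genes and stem cell genes.

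Beside these values, the labelled cell type was checked against its markers. All 5 epithelial markers (EPCAM, CDH1, KRT8, KRT18 and KRT19) were well above background on every array. EPCAM was lower by 1.46 to 1.52 in log2 units and CDH1 by 1.09 to 1.25, while the 3 keratins were 0.31 to 0.59 higher. EPCAM and CDH1 were called lower with every drug, 2 of the 5. Of 6 fibroblast genes 0 were called higher with every drug, of 4 endothelial genes 1 (VWF) and of 4 hepatocyte genes 0. Of all named genes, 5.27% were called higher and 5.21% lower with every drug, and lists this short are too few genes to compare with these shares. CD14, a marker of monocytes, was called higher with every drug, with log2 differences of 1.70, 1.70 and 1.71. DCN and PECAM1 were at least 6.60-fold and at least 8.40-fold higher with each drug but stayed under the level of -1.

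The summed intensity of the fibroblast markers was 338 on the mock array and 669 to 746 with the drugs. The endothelial sum was 79.3 and 400 to 428, and the hepatocyte sum 236 and 212 to 225. These sums are not scaled between arrays and rest mostly on the brightest probes. COL1A1, the brightest fibroblast probe with mock at a level of 0.99, was 1.78-fold, 1.70-fold and 1.86-fold higher. The brightest hepatocyte probe was that of SERPINA1, at 0.51 with mock. COL3A1, LUM, KDR and TTR were not well above background on any array. These lists are few genes in a cultured line, and their part in the results was not tested.

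The 3 drugs were given at the same dose and time, so their arrays can be set against each other in 3 pairs. On the 11 probes of 6 of the genes well above background with every drug, the log2 difference of OR-2003 minus DAC ran from -0.35 to 0.38, all 11 within the central 95% of 30696 probes measured with every drug, -0.38 to 0.50. OR-2100 minus OR-2003 ran from -0.35 to 0.19, with all 11 within -0.60 to 0.49. OR-2100 minus DAC ran from -0.70 to 0.38, with 10 of 11 within -0.50 to 0.52.

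The exception was the dim CDX1 probe A_22_P00014880, at -0.70. The range was -0.68 to 0.65 over the 12621 of these probes with a mean level under -1. Many of them can be brighter than this probe, so whether it stands out among probes as dim was not tested. On TFF3 probe A_23_P393099, OR-2003 was 0.20 above DAC and OR-2100 was 0.14 above DAC. With 1 array for each drug, these ranges describe the probes of these arrays, and a difference between the drugs smaller than them could not be seen.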

How the data were processed

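RNA of HML58-3 cells was hybridized to 1 one-colour Agilent 8x60K array per condition, 4 in all, on 1 slide. Spot intensities were deposited as background-corrected by the authors in Feature Extraction 12.1.0.3, without normalization between arrays, beside a series table of the same values. The flags of the deposited files marking spots well above background or as outliers were used.

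From there, marked spots were left out, log2 intensities of the spots of a probe were averaged, and 0 was set at each array's 75th percentile over gene probes. A probe was well above background if a share over 0.5 of its remaining spots was. Names came from a RefSeq gene table, in which 34892 of 58201 probes had a match, and promoter sequences from RefSeq GRCh38.p14. A gene was read from its brightest probe. The genes and lists were chosen with earlier results of these data known. Of the wider lists, the text names up to 4 genes per role with the largest mean difference among those called in 1 direction with every drug. It also names absorptive genes at least 2-fold higher with every drug but mostly under -1, picked after their values were seen. The 5 genes most like the member probe that differed most were taken too. Some results are not reported here, among them 1 of these 5 genes and the counts of the haematopoietic marker list. ESPN, PAX4 and LYZ had no probe under that name.

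Counting was run on simulated data for the DAC comparison, with 4-fold changes placed only on probes above the 75th percentile. This checks the counting code and cannot tell how calls behave on dimmer probes. Alternatives were normexp with an offset of 50 (run on the median spot intensity), quantile and median scaling, the 75th percentile over the probes above background, a floor, marked spots kept, the median of spots, the series table, a 4-fold threshold, no level threshold and the mean of probes. Python 3.11.15, numpy 2.4.6, pandas 2.3.3, matplotlib 3.10.9, R 4.3.3 and limma 3.58.1 were used.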

Additional observations from a re-analysis of the deposited data

How the results depend on the processing

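With 1 array per condition no library could be left out. No paired analysis was possible because 1 array stands for each condition. The series table, marked spots kept and the median of spots changed no count. In the order DAC, OR-2003 and OR-2100, the number of the 10 genes called higher was 1 throughout, except 2, 2 and 2 with the median of each array at 0 and 3, 3 and 2 with no level threshold, and 1 gene was then called lower with OR-2100 in both settings. Without a level threshold, and with 0 at the median, probes not well above background count too. The number of the 17 probes called higher was 6, 6 and 6 with the median at 0, 7, 7 and 6 with no level threshold, and 1, 1 and 1 with the 75th percentile over the probes above background (below, the bright percentile), where the level is stricter, and 1 probe was called lower with OR-2100 in the first 2. The median of the 10 genes was 0.31, 0.40 and 0.33 with the bright percentile, 0.31 with DAC when probes of a gene were averaged, and -0.12 with OR-2003 with the median at 0. Of the 111 other genes, those called higher were 1, 2 and 1 with the bright percentile, 21, 19 and 18 with the median at 0, and 24, 26 and 21 with no level threshold. Those called lower were 4, 4 and 4, then 18, 19 and 18, then 17, 17 and 23 in the same settings, 2, 4 and 4 at 4-fold, and 6 with OR-2003 with normexp. Their median was 0.19, 0.28 and 0.090 with the bright percentile and -0.24 with OR-2003 with the median at 0. Setting 0 at the median or at the bright percentile moves every gene of an array alike. Normexp, quantile normalization and the floor do not. The median over all probes with DAC was -0.13, and 0.10 with the bright percentile. Among all called probes, 46.0% were higher with DAC, and 61.8% with the bright percentile. The text names 12 other intestinal genes that were called in 1 direction with every drug. Of these, LGALS4, DPP4 and PLS1 were not called with all 3 drugs with normexp. With the bright percentile LGALS4, DPP4, PLS1, ASCL2, CHGA, FOXA2 and GRHL2 were not. The median at 0, quantile normalization, the floor, marked spots kept, the median of spots and the series table kept all 12. Beyond the level threshold, the cause of these changes was not tested.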

Other observations

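The 3 protein-coding genes on each side of each of the 10 genes were read from the RefSeq order after the values of the 10 genes had been seen. Of 60 neighbours, 57 were on the array, and 4 of them (CSF1R beside CDX1, FITM2 beside HNF4A, TFF2 beside TFF3 and THNSL2 beside FABP1) were called higher with every drug. KRCC1, beside FABP1, and TMEM67, beside CDH17, were called lower with every drug. Over all 25006 named genes, 5.27% were called higher and 5.21% lower with every drug. CSF1R, the receptor of a macrophage growth factor, had log2 differences of 3.71 with DAC, 3.95 with OR-2003 and 3.81 with OR-2100.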
